A study of Arabidopsis thaliana with 11 samples.

Results

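The peak lists of maize CENH3 (ZmCENH3) were set against those of Lepidium oleraceum CENH3 (LoCENH3), both introduced into Arabidopsis thaliana plants homozygous for the cenh3-1 mutation. Peaks on chromosomes 1 to 5 were used, and peaks in a block on chromosome 4, from 4325454 to 4482371 of the genome build TAIR10, were left out. The block held LoCENH3 peaks, 139 in replicate 1 and 112 in replicate 2, and 0 ZmCENH3 peaks. This left 1160 of the 1983 peaks of the series. ZmCENH3 contributed 401 peaks in replicate 1 and 408 in replicate 2, and LoCENH3 contributed 155 and 196.

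CENH3 takes the place of histone H3 in the nucleosomes of active centromeres, and the kinetochore, which attaches the chromosome to the spindle, is built on it. The centromeres of A. thaliana consist mainly of long arrays of a satellite repeat, flanked by pericentromeric sequence rich in retrotransposons. Reads from a repeat can match many places, and an assembly may hold only part of an array, so a peak list shows those stretches of a centromere that the assembly contains. Lepidium belongs to the same plant family as Arabidopsis, whereas maize is a grass, and the CENH3 proteins of grasses and of Arabidopsis differ widely in their N-terminal tails.

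The study asked whether centromeres keep their positions when the CENH3 protein diverges. Both lines were in the Columbia ecotype with the genotype cenh3-1/cenh3-1, one carrying the CENH3 of L. oleraceum and the other that of Z. mays, and the lists of AtCENH3 used for reference came from wild-type Columbia. Seedlings were grown for 7 to 10 days in shaken liquid MS medium, and chromatin freed by micrococcal nuclease was precipitated with an antibody against the CENH3 of that line. The promoter of each introduced gene and the number of transgenic lines are not given in the sources used here. Protein, antibody and line differ together and cannot be told apart. The labels do not say whether replicates came from separate cultures, so the p-values measure only the spread between these libraries, which may be technical. With 2 libraries against 2, the smallest two-sided p of an exact permutation test is 0.333.

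The ZmCENH3 libraries held 13886693 and 15798998 tags and shared a control of 9825449 tags, whereas the LoCENH3 libraries held 22489151 and 23205886 tags and shared a control of 12730185 tags. The peak caller scaled each library down to its control. Pile-up, the number of extended tags over the summit, was therefore divided by the scaled total and is given as RPM, the extended tags over the summit for every 1000000 scaled tags. A list holds only what passed the caller's cutoff, and signal below that cutoff does not appear in it.

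The ZmCENH3 lists were longer, and most of their additional peaks were low. ZmCENH3 covered 183.5 and 195.8 kb, and LoCENH3 covered 54.8 and 79.6 kb outside the block. The ranges did not overlap, with a log2 ratio of 1.52 ± 0.27 (standard error, n = 2 libraries each; exact permutation p = 0.333). With the block included the log2 ratio was 0.49.

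Median pile-up was 6.70 and 6.99 RPM in the ZmCENH3 lists. In the LoCENH3 lists it was 19.1 and 13.1. Peaks under 10 RPM made up 65.3% and 64.7% of the ZmCENH3 lists, against 35.5% and 39.3% of the LoCENH3 lists. Low peaks were therefore the majority of both ZmCENH3 lists and the minority of both LoCENH3 lists.

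Most ZmCENH3 peaks had no LoCENH3 counterpart. In replicate 1, 231 of 401 peaks (57.6%) overlapped no LoCENH3 peak by 1 bp in either library, and in replicate 2, 240 of 408 (58.8%). The mean was 58.2% ± 0.86 (SD, n = 2). A further 58 and 57 peaks overlapped a peak in 1 LoCENH3 library, which was replicate 2 for 53 and 52 of them. The remaining 112 and 111 peaks overlapped both LoCENH3 lists. The share depended on the LoCENH3 list used, at 70.8% and 71.6% against replicate 1 alone and 58.9% and 60.0% against replicate 2 alone. With every list cut to the same number of best-scoring peaks, the mean share was 25.5%.

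The reverse was rare. Of the LoCENH3 peaks outside the block, 15 of 155 in replicate 1 (9.68%) and 9 of 196 in replicate 2 (4.59%) overlapped no ZmCENH3 peak, a mean of 7.13% ± 3.60 (SD, n = 2). The difference between the share of ZmCENH3 peaks without LoCENH3 and the share of LoCENH3 peaks without ZmCENH3 had an exact two-sided permutation p of 0.333. For comparison, 137 of the 155 peaks of LoCENH3 replicate 1 overlapped a peak of LoCENH3 replicate 2, and 140 overlapped a ZmCENH3 peak. The ZmCENH3 lists are longer, and the part of list length was not tested. Low LoCENH3 peaks usually had a ZmCENH3 peak too: of those under 10 RPM, 42 of 55 and 69 of 77 did. With the block on chromosome 4 included, the mean share of LoCENH3 peaks without ZmCENH3 was 45.8%. Outside it the mean was 18.1% with lists of equal length, 37.6% when a reciprocal overlap of 50% was asked for, and 0.51% among the better-scoring peaks.

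ZmCENH3 peaks without a LoCENH3 peak were mostly the low ones. Their median pile-up was 4.68 RPM in replicate 1 and 4.30 in replicate 2. Peaks shared with 1 LoCENH3 list had medians of 9.51 and 9.87, and peaks shared with both had medians of 50.4 and 56.6. Pile-up thus rose with the number of LoCENH3 lists that held the peak, in both ZmCENH3 libraries. The log2 ratio of the median pile-up without LoCENH3 to that with LoCENH3 was -1.91 ± 0.094 (SD, n = 2). Without LoCENH3 replicate 2 that ratio was -2.89.

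The share without LoCENH3 fell along the order of pile-up. In the lowest quartile of each ZmCENH3 list it was 96.2% in replicate 1 and 99.1% in replicate 2, and in the second quartile 87.8% and 83.7%. It was 31.3% and 39.2% in the third quartile and 14.0% and 12.7% in the highest. The main step lay near the median of the lists, at 6.70 and 6.96 RPM. Of the peaks without LoCENH3, 80.5% and 77.9% lay in the lower part. Among peaks of 10 RPM or more, a limit chosen after the values were seen, the mean share without LoCENH3 was 15.6%.

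**Figure D1:**
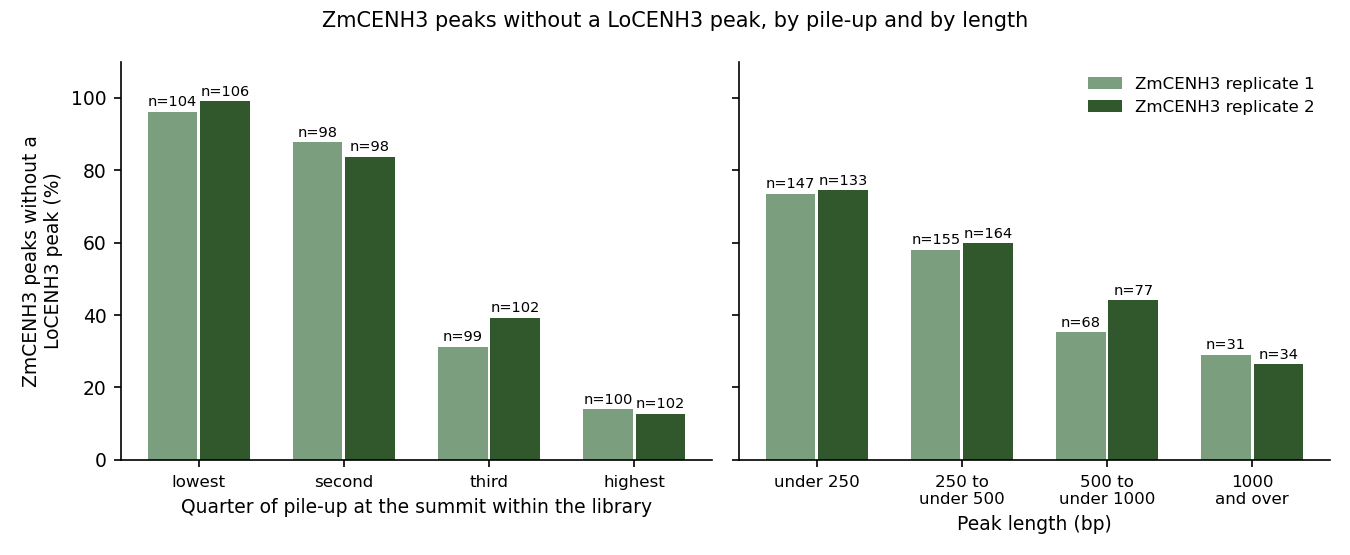
Share of ZmCENH3 peaks that overlap no LoCENH3 peak, in percent, by quartile of pile-up within each library and by class of peak length in bp, with a bar for each ZmCENH3 library. The share falls from 96.2% and 99.1% in the lowest quartile of pile-up to 14.0% and 12.7% in the highest, and from 73.5% and 74.4% under 250 bp to 29.0% and 26.5% at 1000 bp and over.

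Peaks without LoCENH3 were also shorter, though length separated them less than pile-up did. Their median length was 260 bp in replicate 1 and 286.5 bp in replicate 2, against 404.5 and 422.5 bp for peaks with LoCENH3. The log2 ratio of the medians was -0.60 ± 0.055 (SD, n = 2). Of peaks under 250 bp, 73.5% and 74.4% had no LoCENH3 peak. The share was 58.1% and 59.8% from 250 to under 500 bp, 35.3% and 44.2% from 500 to under 1000 bp, and 29.0% and 26.5% at 1000 bp and over. Across all peaks of a list, length and pile-up were only loosely related, with Spearman's rho of 0.32 and 0.29 over 401 and 408 peaks that share a library.

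Each list was split at its median pile-up and its median length to see the 2 measures apart. Among peaks of low pile-up, 93.0% and 95.0% of the shorter ones and 90.4% and 86.9% of the longer ones had no LoCENH3 peak. Among peaks of high pile-up the shares were 35.1% and 35.7% for the shorter and 15.2% and 19.2% for the longer ones. Low peaks lacked LoCENH3 at either length, and among high peaks the short ones lacked it more often in both libraries. Among peaks of 10 RPM or more, against the full LoCENH3 lists, the log2 ratio of lengths without to with LoCENH3 was -0.76 in replicate 1 and -0.53 in replicate 2. Only 15.8% of these 139 peaks and 15.3% of these 144 had no LoCENH3 peak. In each library 13 of them lay on chromosome 4 between 3965590 and 4011276, so the ratio rests largely on 1 stretch. With every list, LoCENH3 included, cut to its better-scoring peaks by deposited q-value (77 and 98 peaks of LoCENH3), it was 0.078 and -0.080, opposite in sign, with a mean of -0.00093.

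**Figure D2:**
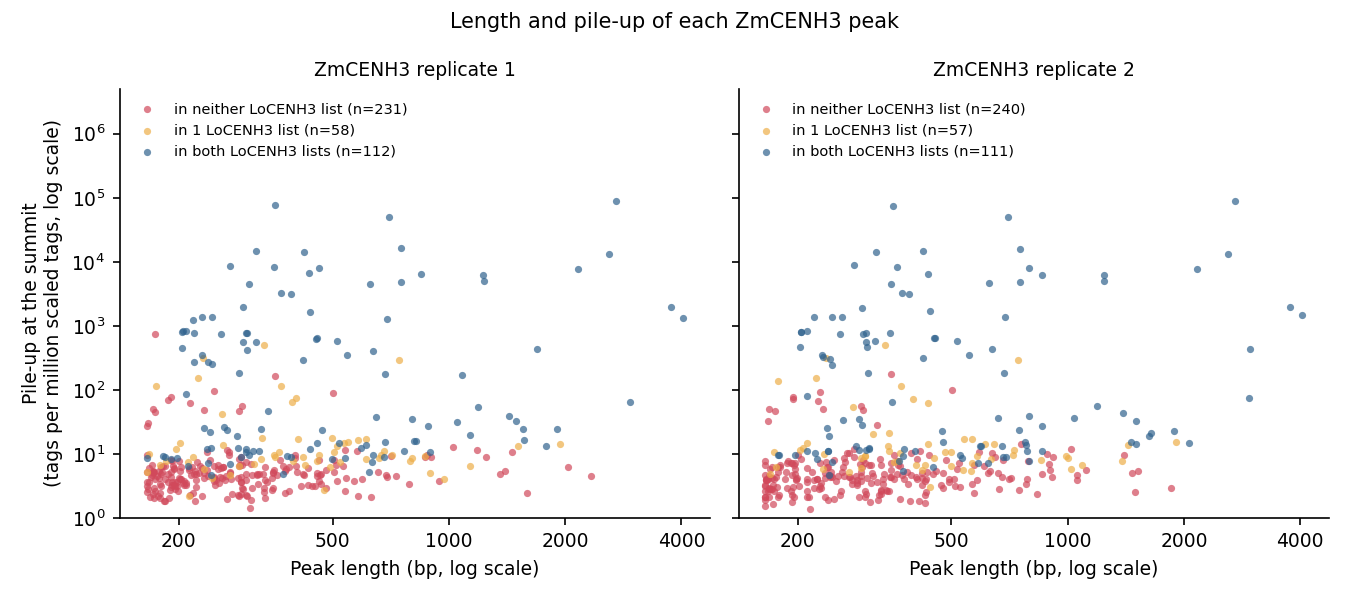
Length in bp against pile-up at the summit in RPM, both on log scales, for each ZmCENH3 peak, with a panel for each library and colours for overlap with neither, 1 or both LoCENH3 lists. Most peaks in neither list lie below 10 RPM at all lengths, and peaks above 1000 RPM are in both LoCENH3 lists.

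A readout that the comparison did not use, the AtCENH3 lists of wild-type plants, divided the ZmCENH3 peaks in the same direction. Of ZmCENH3 peaks without LoCENH3, 39.4% in replicate 1 and 35.0% in replicate 2 overlapped an AtCENH3 peak. Of those with LoCENH3, 94.7% and 94.6% did. The difference was 57.5 percentage points ± 3.06 (SD, n = 2), and 19.9 with lists of equal length. ZmCENH3 peaks that had neither LoCENH3 nor AtCENH3 numbered 140 and 156. Of peaks with no AtCENH3 peak, only 9 in each library had a LoCENH3 peak. Height divided along this line too: median pile-up was 10.8 and 11.0 RPM with an AtCENH3 peak and 4.18 and 3.92 without. The part of height in the AtCENH3 overlap was not tested.

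The peaks without LoCENH3 were largely found again in the other ZmCENH3 library. Of them, 79.7% of replicate 1 and 74.6% of replicate 2 overlapped a peak of the other replicate, against 99.4% in both libraries for peaks with LoCENH3. Merging the 4 lists gave 468 regions. Of these, 171 had a peak in both ZmCENH3 libraries and in no LoCENH3 library, and 108 in 1 ZmCENH3 library alone. The number 171 became 96 among the better-scoring peaks and 30 with lists of equal length. The 4 libraries shared 110 regions, and 56 had both ZmCENH3 libraries with 1 LoCENH3 library, replicate 2 in 52 of them.

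An AtCENH3 peak lay in 44.4% of the 171 regions of both ZmCENH3 libraries alone. It lay in 13.0% of those with 1 ZmCENH3 library alone, in 91.1% of those with 1 LoCENH3 library added and in 97.3% of those shared by all 4. The regions of ZmCENH3 alone were thus found in wild type less often than shared regions, but many were.

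By position, chromosome 3 had the highest share of ZmCENH3 peaks without LoCENH3 and chromosome 4 the lowest, in both libraries. Chromosome 3 had shares of 74.5% and 75.0%, chromosome 5 of 59.4% and 63.5%, and chromosome 1 of 58.3% and 56.9%. Chromosome 2 had 51.1% in both libraries and chromosome 4 had 44.7% and 41.7%. Pile-up moved with this order at its ends. The median was lowest on chromosome 3, at 3.67 and 4.05 RPM, and highest on chromosome 4, at 25.5 and 39.1, and its part in the order of the shares was not tested.

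Chromosome 5 held the most regions of both ZmCENH3 libraries alone, 76 of 171 with 41.5 kb. Chromosome 4 held 29, chromosome 3 25, chromosome 1 24 and chromosome 2 17. Chromosome 5 also had the most peaks of any chromosome in both ZmCENH3 lists. It likewise led among regions with LoCENH3, with 37 of the 110 shared by all 4 libraries. Of the 56 with both ZmCENH3 libraries and 1 LoCENH3 library it held 28. Its lead was thus not particular to regions without LoCENH3. The succession of most ZmCENH3 regions with no LoCENH3 region between them was also on chromosome 5. It held 38 regions over 81.0 kb, from 11850569 to 11931563, 22 of them in both ZmCENH3 libraries and 9 with an AtCENH3 peak. Pile-up there ranged from 1.96 to 11.3 RPM. By number of regions, the leading succession of chromosome 1 had 18 over 385.3 kb, from 15099783 to 15485084. On chromosomes 3, 2 and 4 it had 11, 8 and 7 regions over 124.9, 16.5 and 729.5 kb, so that the most numerous was not the widest.

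ZmCENH3 peaks without LoCENH3 were not set apart from the LoCENH3 peaks on the scale of a centromere. The median gap to the nearest LoCENH3 peak was 4258 bp in replicate 1 and 5579 bp in replicate 2. Of these peaks, 64 and 61 lay within 1 kb of a LoCENH3 peak, 63.2% and 62.1% within 10 kb, and 203 and 219 within 100 kb. The centromere window of a chromosome was taken as the 3 Mb with the most AtCENH3 bases. Of the peaks without LoCENH3, 218 of 231 and 229 of 240 lay in a window. So did nearly all ZmCENH3 peaks, 383 of 401 and 392 of 408. Within windows, 57.7% ± 1.06 (SD, n = 2) of ZmCENH3 peaks had no LoCENH3 peak.

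**Figure D3:**
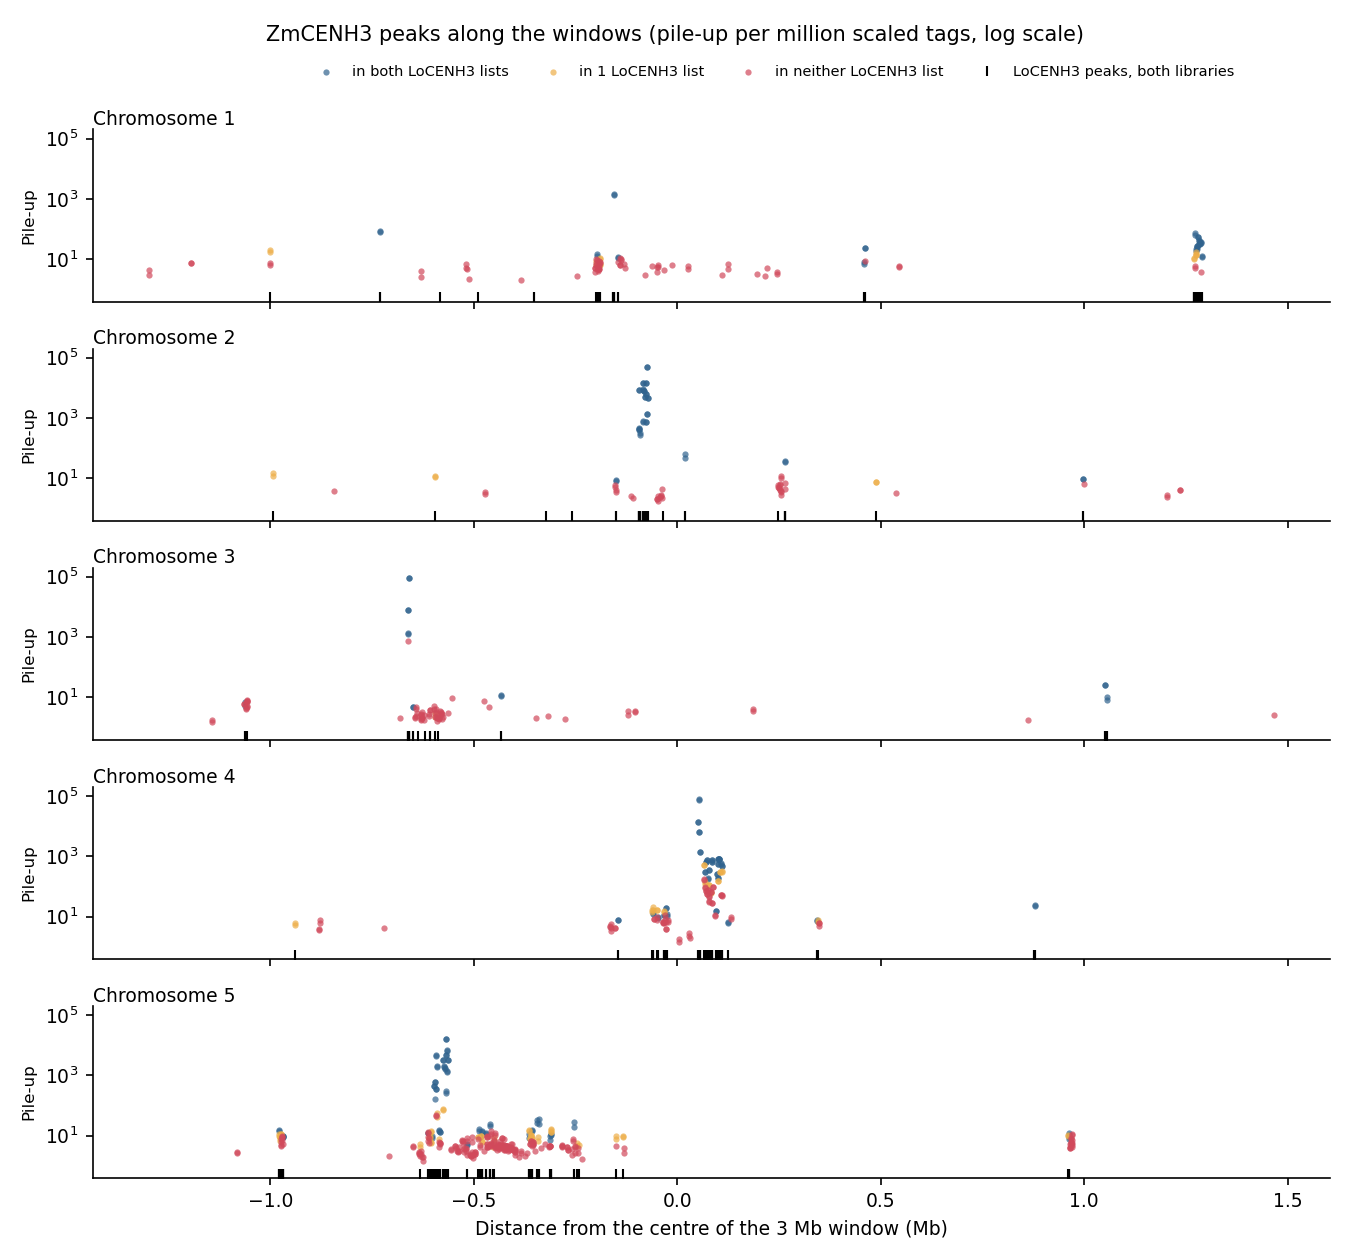
Position of each ZmCENH3 peak in the 3 Mb window of its chromosome, with pile-up in RPM on a log scale and colours for overlap with neither, 1 or both LoCENH3 lists, and with the LoCENH3 peaks outside the block marked below. Peaks in neither list occur on all 5 chromosomes, mostly under 10 RPM, and most lie close to LoCENH3 peaks, 63.2% and 62.1% within 10 kb.

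High ZmCENH3 peaks without LoCENH3 were concentrated in a single stretch. The highest quartile of pile-up held 14 such peaks in replicate 1 and 13 in replicate 2, and 12 in each library lay on chromosome 4 between 3965590 and 4011276, within 45.7 kb. Their pile-up ran from 27.7 to 166.1 RPM in replicate 1 and from 27.9 to 174.8 in replicate 2. The fold over local background was 2.34 to 4.92 and 2.36 to 5.40. The others were at 13588858 to 13589031 on chromosome 3, with 736.0 RPM in replicate 1, and at 11707311 to 11707596 on chromosome 5, with 46.4 and 48.6. They lay 186 and 183 bp from the nearest LoCENH3 peak in replicate 1. Replicate 2 also had a peak overlapping the former, but not among its highest-quartile peaks without LoCENH3.

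The 5 highest regions of ZmCENH3 alone were all in that stretch. The region from 3965590 to 3965943 had 166.1 RPM in ZmCENH3 replicate 1 and 174.8 in replicate 2, and the AtCENH3 lists had 55.1 and 55.3 there. At 3967218 to 3967719 the ZmCENH3 values were 89.5 and 98.3, and at 3987357 to 3987603 they were 94.2 and 92.2. The region from 3974682 to 3974876 had 76.9 and 78.2. At 3970338 to 3970532, with 68.6 and 70.8, neither AtCENH3 list had a peak, whereas the other 4 regions had a peak in both.

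The stretch was not free of LoCENH3. Each ZmCENH3 list had 36 peaks there, 13 of them without LoCENH3 and 29 with AtCENH3, and the LoCENH3 lists had 16 and 24. At its 15 regions with exactly 1 peak in every library, median pile-up was 567.6 and 583.3 RPM in ZmCENH3 and 331.3 and 430.5 in LoCENH3. The fold was 5.93 and 5.95 in ZmCENH3 and 2.0 and 2.51 in LoCENH3. The local background implied by pile-up and fold was 85.4 and 85.8 RPM for ZmCENH3 and 143.8 and 145.0 for LoCENH3. In this stretch ZmCENH3 had the higher pile-up and LoCENH3 the higher background, and the part of the background in which peaks were called was not tested. Without the stretch the mean share of ZmCENH3 peaks lacking LoCENH3 was 60.4%.

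The longest regions of ZmCENH3 alone had low pile-up. The longest, 2693 bp from 5283958 to 5286650 on chromosome 3, had 6.27 and 5.51 RPM. On chromosome 5, 11753969 to 11756413 (2445 bp) had 4.54 and 4.62, 11668080 to 11670080 (2001 bp) had 2.45 and 2.53, and 11859667 to 11861234 (1568 bp) had 4.75 and 5.38. On chromosome 3, 13668058 to 13669913 (1856 bp) had 3.46 and 2.91. Broad, low ZmCENH3 signal without LoCENH3 thus occurred on both chromosomes. AtCENH3 had a peak in both lists at the 2 regions of chromosome 3 and in neither list at the first and last of those on chromosome 5.

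Outside the windows, 13 of 18 and 11 of 16 ZmCENH3 peaks had no LoCENH3 peak, and 12 regions were in both ZmCENH3 libraries. A cluster of 5 of these lay on an arm of chromosome 3, between 5278678 and 5286650. Its first region, 5278678 to 5279120, was in all 4 libraries, with 8.79 and 11.3 RPM in ZmCENH3 and 6.63 and 8.45 in LoCENH3. LoCENH3 replicate 2 also had peaks at 5279752 to 5280828 and at 5282975 to 5283370, and the other 2 regions had ZmCENH3 alone. At 13180868 to 13181668 on chromosome 1, outside the window too, the 4 values were close to each other, at 11.0 and 11.0 for ZmCENH3 and 9.16 and 11.2 for LoCENH3.

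On the arm of chromosome 1, 2 regions of ZmCENH3 alone lay over protein-coding genes. The region from 142222 to 143693 had 10.7 and 9.43 RPM, and that from 145500 to 145930 had 6.05 and 6.52. Neither the LoCENH3 nor the AtCENH3 lists had a peak there. The genes were RCAR1 (AT1G01360), an abscisic acid receptor, with 1025 and 1040 bp under peaks, and its neighbour HTR12 (AT1G01370), which encodes the native CENH3, with 636 and 502 bp. Of the 6 genes of the list of native CENH3 and kinetochore or CENH3-loading proteins (HTR12, CENP-C, KNL2, MIS12, NDC80 and NUF2), HTR12 alone had a peak in the ZmCENH3 or LoCENH3 lists. Of all 37887 annotated genes, 101 (0.267%) had one.

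The remaining regions outside the windows were few. On chromosome 2, 19165 to 19596 had 4.75 and 5.25 RPM, 62689 to 63075 had 3.31 and 3.42, and 5578487 to 5578828 had 4.18 and 5.06, all without LoCENH3. The first of these had AtCENH3 peaks of 2.55 and 1.81 RPM and the second of 2.22 and 2.26, and the third had none. On chromosome 3, 12250560 to 12250983 had 6.77 and 6.71 in ZmCENH3 and 6.08 in LoCENH3 replicate 2. Such peaks were of the height common among the peaks without LoCENH3 in the windows.

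Annotated genes under the 171 regions of ZmCENH3 alone were almost all pseudogenes, and most genes under shared regions were pseudogenes too. In the RefSeq gene table, 74 of the 171 regions (43.3%) overlapped a gene. The 51 genes were 49 pseudogenes and the 2 protein-coding genes above. Of the 166 regions with both ZmCENH3 libraries and LoCENH3, 35.5% overlapped a gene. Pseudogenes lay in 42.1% of the former and 28.3% of the latter, and protein-coding genes in 1.17% and 7.23%. For protein-coding genes these were 2 regions over 2 genes and 12 regions over only 4 genes. No cause of this difference was tested. Under the 166 shared regions, 34 of 41 genes were pseudogenes. Of the 101 genes with a peak in any of the 4 lists, 13 were protein-coding.

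Of all 51 genes, which were chosen for lying under regions without LoCENH3, 38 (74.5%) had no base under a LoCENH3 peak, and so did 19 of the 25 with the most bases. The pseudogene AT5G34985 on chromosome 5 led, with 2344 and 2579 bp under 7 and 6 ZmCENH3 peaks and none under LoCENH3. AT3G15602, in the cluster on chromosome 3, had 1811 and 1484 bp under ZmCENH3 peaks, and AT5G32345 had 1295 and 1153 bp, again with none under LoCENH3. AT4G06656, with 1166 and 1197 bp, showed the same. Some pseudogenes carried peaks of both proteins: AT5G29975 had 3290 and 3414 bp under ZmCENH3 peaks and 744 bp under LoCENH3 replicate 2, and AT1G40095 had 3149 and 2937 bp and 484 bp. AT5G31804 had 1508 and 1966 bp under ZmCENH3 and 189 and 198 bp under the 2 LoCENH3 lists.

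Of all 51 genes, 18 (35.3%) had no base under LoCENH3 or AtCENH3 peaks, and 7 of these were among the 25 with the most bases. The 7 were RCAR1, HTR12 and the pseudogenes AT5G32179, AT4G06692, AT3G33083, AT5G29571 and AT2G12210. AT5G32179 had 759 and 607 bp under 3 ZmCENH3 peaks in each library, the most of the 5 pseudogenes in replicate 1. AT3G33083 rested almost wholly on replicate 2, with 374 bp against 11 bp in replicate 1.

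Regions of LoCENH3 alone were few outside the block. In both LoCENH3 libraries and no ZmCENH3 library there were 3, and 18 were in 1 LoCENH3 library. The region from 4777224 to 4777395 on chromosome 4 had 8.72 and 12.6 RPM in LoCENH3 and 7.21 and 5.95 in AtCENH3. At 14887767 to 14888028 on chromosome 1 LoCENH3 had 2.62 and 2.33, and at 13642770 to 13643225 on chromosome 3 it had 2.62 and 2.63. Of the LoCENH3 peaks without ZmCENH3, 8 of 15 in replicate 1 and 0 of 9 in replicate 2 lay outside the windows.

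Regions with exactly 1 peak in each library had closely ranked heights in the 2 proteins. Their shared place followed from the choice, since regions were merged from overlapping peaks. Of the 110 regions of all 4 libraries, 85 had exactly 1 peak in each, and the other 25 had more in at least 1 library. Chromosomes 1, 2, 3, 4 and 5 had 9, 14, 7, 26 and 29 of the 85 regions, and 82 regions had an AtCENH3 peak. Across them, Pearson's r of log2 pile-up was 0.997 to 0.998 between a ZmCENH3 and a LoCENH3 library, 0.999 between the ZmCENH3 libraries and 0.998 between the LoCENH3 libraries. Spearman's rho was 0.984 to 0.989 between a ZmCENH3 and a LoCENH3 library, 0.989 between the ZmCENH3 libraries and 0.990 between the LoCENH3 libraries. These are descriptions over regions that share libraries, and the wide range of pile-up bears on r. The implied background rose with pile-up too. Its medians were 2.34 to 2.83 RPM in the 43 regions of lower pile-up and 127.5 to 214.5 in the 42 of higher pile-up. The part of the background in r was not tested.

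Pile-up at the 85 regions was higher in ZmCENH3 on the RPM scale, but the size of the difference was close to the spread between the LoCENH3 libraries. The medians were 37.6 and 36.0 RPM in ZmCENH3 and 23.2 and 44.3 in LoCENH3. The LoCENH3 medians thus lay on either side of the ZmCENH3 medians. Within regions, the log2 ratio of ZmCENH3 over LoCENH3 had a median of 0.32 ± 0.23 (SD over the 4 pairs of libraries; exact permutation p = 0.333), -0.055 with the pile-up as deposited and 1.53 with pile-up divided by the median of its list. In RPM, both ZmCENH3 libraries were above both LoCENH3 libraries in 53 regions and below both in 0. Region by region, both ZmCENH3 libraries were above LoCENH3 replicate 2 at the median too, by log2 0.075 and 0.15. Without LoCENH3 replicate 1 the log2 ratio was 0.20, and without LoCENH3 replicate 2 it was 0.51.

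ZmCENH3 peaks were also longer at these regions. Median length was 317 and 348 bp in ZmCENH3 and 238 and 274 bp in LoCENH3, with no overlap between the variants. The log2 ratio was 0.25 ± 0.095 (SD over the 4 pairs of libraries; exact permutation p = 0.333), and the mean ZmCENH3 peak was longer in 79 of 85 regions. Over all 85 regions the ZmCENH3 peak began a median of 21 bp earlier and ended 20 bp later. The groups by pile-up leaned opposite ways. These medians were 32 and 17 bp in the 43 regions of lower pile-up and 12 and 20 bp in the 42 of higher pile-up.

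The fold over local background, the authors' value for each peak, differed more than pile-up. Its medians were 6.04 and 6.23 in ZmCENH3 and 3.06 and 4.01 in LoCENH3, a log2 difference of 0.78. Both ZmCENH3 libraries were above both LoCENH3 libraries in 58 regions and below both in 7. In the 42 regions of higher pile-up the implied background was 127.6 and 127.5 RPM for ZmCENH3 and 214.5 and 211.6 for LoCENH3. In the 43 of lower pile-up it was 2.44 and 2.34 against 2.67 and 2.83. Over all 85 regions the medians were 13.8 and 13.8 for ZmCENH3 and 8.01 and 7.54 for LoCENH3, the other way round. In each group the LoCENH3 medians were thus the higher. Those over all 85 regions lay between the levels of the groups. The background was solved from pile-up and fold, so it is no separate measure of the difference in fold. Its part in that difference was not tested.

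Chromosome 4 showed the widest difference in fold. At its 26 regions the medians were 5.97 and 6.08 in ZmCENH3 and 2.22 and 2.64 in LoCENH3, with implied backgrounds of 68.6 and 68.9 against 117.8 and 115.4 RPM. In RPM, the log2 ratio of pile-up was 0.57 there, against 0.22 to 0.27 on the other 4 chromosomes. Of the 26 regions, 15 lay in the stretch described above, with a log2 ratio of 0.62, and the other 11 had 0.35. The log2 difference in fold was 1.41 in the stretch and 1.10 at the other 11.

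**Figure D4:**
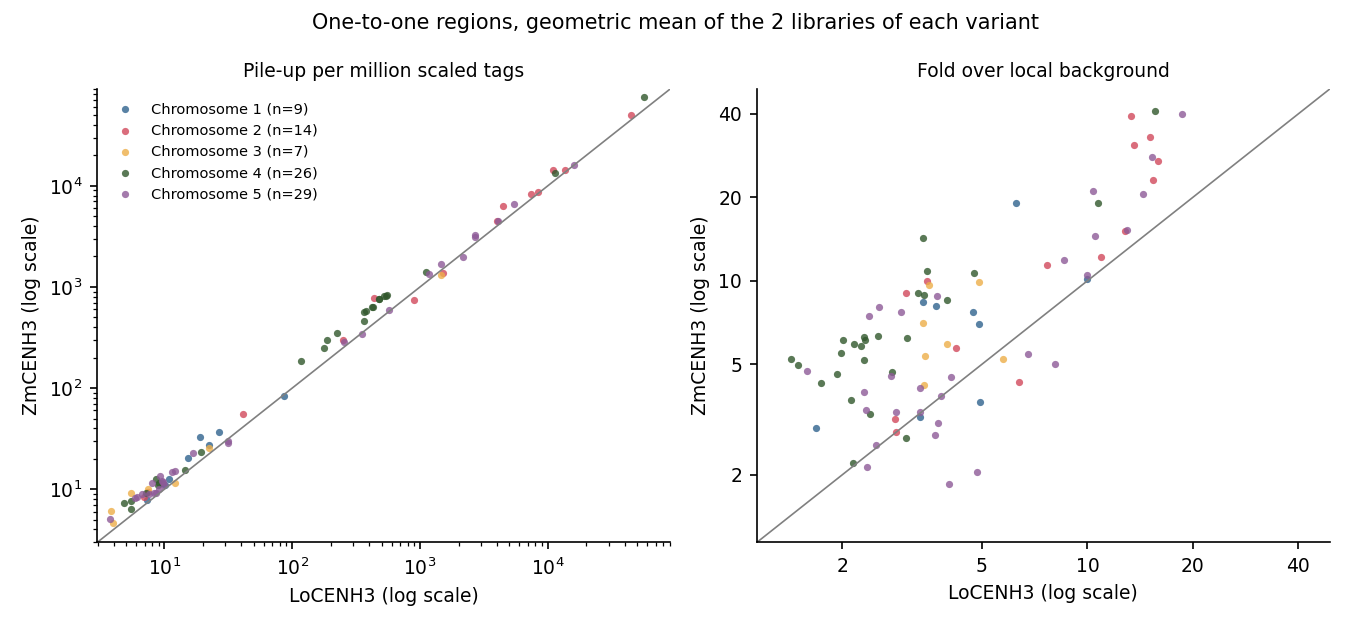
ZmCENH3 on the vertical axis against LoCENH3 on the horizontal axis at the 85 regions with exactly 1 peak in each library, each point the geometric mean of the 2 libraries of a variant on log scales, with pile-up in RPM on the left and fold over local background on the right, coloured by chromosome. Pile-up lies near the diagonal over the whole range. It is above the diagonal, higher in ZmCENH3, at 76 of 85 regions and 26 of 26 on chromosome 4. The fold is above the diagonal at 73 of 85 regions and 25 of 26 on chromosome 4.

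The highest of the 85 regions had identical or nearly identical summits in the ZmCENH3 and LoCENH3 libraries. A higher shared peak, at 13589848 to 13592556 on chromosome 3 with 88284 and 87507 RPM in ZmCENH3, was not among them because some library had more than 1 peak in its region. The highest of the 85, at 3953425 to 3953779 on chromosome 4, held 7.59% and 7.51% of the scaled tags of ZmCENH3 at its summit and 4.86% and 6.57% of those of LoCENH3. All 4 libraries had the summit at 3953564. On chromosome 2, 3625804 to 3626503 held 5.06% and 5.04% against 3.81% and 5.25%, with all summits at 3626285. Summits were also identical at 11732285 on chromosome 5 and at 3622618 on chromosome 2. At 3616500 to 3616922 on chromosome 2, ZmCENH3 replicate 2 was at 3616633 and the others at 3616632.

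Over the 85 regions, summits of the 2 proteins differed by about as much as summits of replicates. The median absolute offset was 2 bp between the ZmCENH3 libraries and 6 bp between the LoCENH3 libraries, a mean of 4 bp. Between ZmCENH3 and LoCENH3 libraries it was 6, 4, 7 and 4 bp, a mean of 5.25 bp. The difference of 1.25 bp had an exact one-sided p of 0.333 over the 3 ways to pair 4 libraries, the smallest that they allow. It was -1 without either ZmCENH3 replicate and -1.75 when every overlapping pair of peaks was used, so its direction was not stable.

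All 4 summits were on the same base in 8 regions, within 10 bp in 35 (41.2%) and within 50 bp in 66. The spread exceeded 100 bp in 4. In 24 regions both ZmCENH3 summits lay on one side of both LoCENH3 summits, downstream in 11 and upstream in 13, so no side prevailed. The median spread of the 4 summits was 33 bp in the 43 regions of lower pile-up and 6.5 bp in the 42 of higher pile-up.

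**Figure D5:**
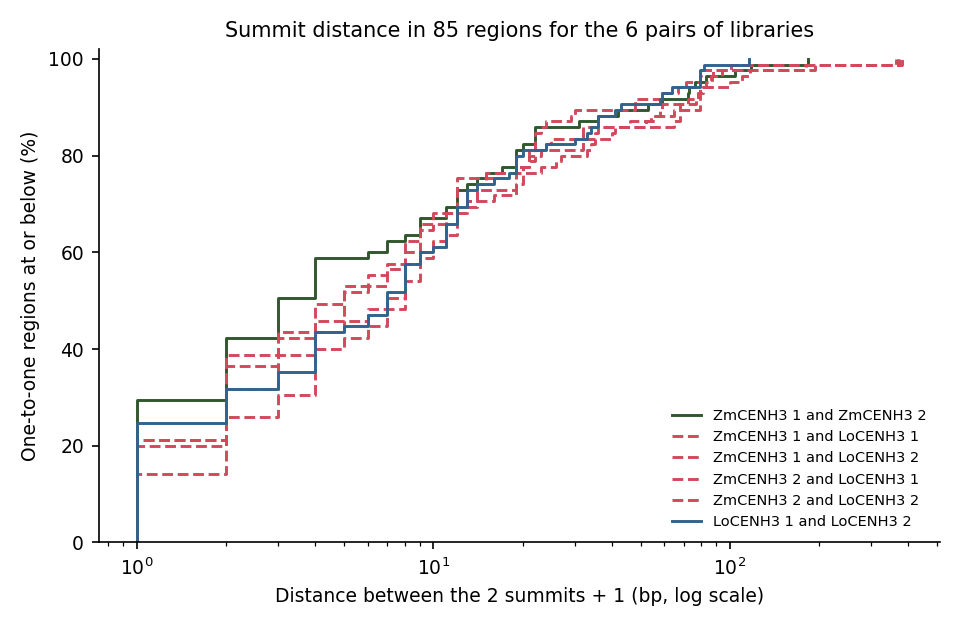
Cumulative share of the 85 regions, in percent, by absolute distance in bp between the summits of a pair of libraries, for the 6 pairs of libraries. The ZmCENH3 pair has a median of 2 bp, the LoCENH3 pair 6 bp and the pairs between proteins 4 to 7 bp.

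The largest offsets of one sign were described by rule and not tested. At 3626846 to 3627472 on chromosome 2, the ZmCENH3 summits were at 3626963 and 3626969 and the LoCENH3 summits at 3627341 and 3627331, a mean offset of 370 bp. Pile-up there was 4453 and 4619 RPM in ZmCENH3 and 3240 and 5019 in LoCENH3, and the peak edges differed by at most 12 bp at either end. Replicates of a protein lay within 6 and 10 bp of each other, far less than the offset between proteins. Choosing regions by a large offset of one sign favours such a contrast.

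The next offsets were smaller. They were 93 bp at 11988055 to 11988691 and 78 bp at 11718029 to 11718638, both on chromosome 5. At 3970888 to 3971345 on chromosome 4, in the stretch described above, the offset was 77.5 bp, with ZmCENH3 summits at 3971041 in both libraries and LoCENH3 summits at 3971118 and 3971119. At 11935209 to 11935496 on chromosome 5 it was 41 bp, where the LoCENH3 replicates themselves differed by 33 bp.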

How the data were processed

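Peak lists of 4 libraries, 2 of ZmCENH3 and 2 of LoCENH3, were compared, with 2 AtCENH3 lists for reference. Samples were grouped by their titles, and the 5 other samples, controls and inputs, were not used here. Per the submitters' processing notes, BWA, MACS2 and the build TAIR10 were used. Per the file headers, MACS version 2.1.0.20140616 called peaks for each library without a fragment model. It extended tags to 165 bp, kept duplicates, scaled the larger of ChIP and control to the smaller, and applied a q-value cutoff of 0.05 and a genome size setting of 2.7 Gb. That setting is far above the size of this genome and lowers the genome-wide minimum of the background, so that peaks of few tags can be called. Per the file headers, 1 control alignment served both libraries of a protein. The sources used here do not name the sample it came from, nor the treatment of tags with several matching places.

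The deposited pile-up is the signal (coverage by extended tags) at the summit after scaling. Significance was deposited as the caller's −log10 p-value and −log10 q-value. Fold enrichment, also deposited, is a ratio at the summit of ChIP over local background. Pile-up was expressed for every 1000000 scaled tags (RPM), and background was solved from (pile-up + 1) / (background + 1), the usual definition of that ratio. A peak in either LoCENH3 list that overlapped by 1 bp counted. Exact permutation over libraries was used, with no test over peaks, which are not replicates.

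Named regions were the 5 highest and 5 longest of ZmCENH3 alone, all of LoCENH3 alone, of the shared regions with exactly 1 peak in each library the 5 highest and the 5 with the largest summit offset of one sign, and those outside the windows in both ZmCENH3 libraries. Genes were the 25 with most bases under regions of ZmCENH3 alone and the members with a peak of a list of 6, from the RefSeq table of TAIR10.1, which was assumed to share the numbering of TAIR10. Regions, genes, lists and the block were chosen with earlier results of these data known. Alternatives were other overlaps, the better-scoring peaks by −log10 q, lists cut to equal length, other pile-up scales, a replicate block and leaving out each library. Interval functions were checked on simulated data, where 0 of 200 trials differed from a direct count. Tools were Python 3.11.15, pandas 2.3.3, numpy 2.4.6, matplotlib 3.10.9 and scipy 1.17.1.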

Additional observations from a re-analysis of the deposited data

Results flagged for a closer look

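LoCENH3 replicate 1 had 2 peaks outside the nuclear chromosomes, which the comparisons left out. One lay on chloroplast DNA with a fold over local background of 1.17 and the other on mitochondrial DNA with a fold of 1.48. LoCENH3 replicate 2, both ZmCENH3 lists and both AtCENH3 lists had none there.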

How the results depend on the processing

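The covered length, and the length of peaks at shared regions, kept their direction under all alternatives run, in a design whose p cannot fall below 0.333. For the share of ZmCENH3 peaks without LoCENH3, the other values were 25.5% with lists of equal length, 67.1% with a reciprocal overlap of 50%, 51.2% with peaks within 500 bp counted, 65.4% with same-numbered libraries paired as a replicate block, 15.6% among peaks of 10 RPM or more, 60.4% without the chromosome 4 stretch and 57.6% to 71.2% when leaving out each library. The limit of 10 RPM and the stretch were chosen after seeing the data.

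The log2 ratio of pile-up without against with LoCENH3 was -5.57 among the better-scoring peaks of a list, -3.26 with equal lists, -2.40 with the reciprocal overlap, -1.78 with the 500 bp gap, -2.50 with the replicate block, -1.67 without the stretch and -2.89 to -1.85 when leaving out each library. That of length was, in the same order, -0.00093, -0.46, -0.22, -0.46, -0.51, -0.65 and -0.64 to -0.46. The difference in AtCENH3 overlap was 46.0, 19.9 and 50.9 percentage points among the better-scoring peaks, with equal lists and with the gap, and 48.5 to 59.6 when leaving out each library.

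The share of LoCENH3 peaks without ZmCENH3 was 0.51% among the better-scoring peaks, 18.1% with equal lists, 37.6% with the reciprocal overlap and 45.8% with the block on chromosome 4 included. Regions of both ZmCENH3 libraries alone numbered 96 among the better-scoring peaks and 30 with equal lists, which have fewer peaks by construction. The summit difference turned to -1.75 bp with every overlapping pair and ranged from -1 to 4 bp when leaving out each library. The pile-up ratio at shared regions was -0.055 as deposited, without division by the scaled total, and 1.53 with pile-up divided by the median of its list. The cause of the other changes was not tested.

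The replicate numbers share no stated origin. Same-numbered libraries correlated in their deviations with Pearson's r of 0.26 and Spearman's rho of 0.15 over the 85 shared regions, and the smallest p of a replicate block is 0.5. The ZmCENH3 lists rest on fewer tags and a smaller control, and the part of depth and control in which low peaks were called was not tested.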

Other observations

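Summits were also compared with those of the native protein. Of the merged regions of all 6 libraries, 74 had exactly 1 peak in each library of ZmCENH3, LoCENH3 and AtCENH3. All 6 summits fell on the same base in 5 of them, within 10 bp in 26 and within 50 bp in 53. The median distance between the mean summit of a variant and that of another was 4.5 bp for ZmCENH3 and AtCENH3, 3.5 bp for LoCENH3 and AtCENH3, and 4 bp for ZmCENH3 and LoCENH3. These values describe the regions and carry no test.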
